A study of Mus musculus with 8 samples.

Results

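Genes of the Notch pathway were described in mRNA-seq of mouse liver cells, which the study isolated as endothelial cells (ECs). The cells were with or without LRP1, the low-density lipoprotein receptor-related protein 1, a large endocytic receptor. The 10 genes were chosen by symbol from the 22520 genes of the table: the receptors Notch1, Notch2, Notch3 and Notch4, the ligands Jag1, Jag2 and Dll4, and the transcriptional targets Hes1, Hey1 and Heyl.

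Notch receptors are activated by ligands of the Delta-like (Dll) and Jagged (Jag) families on a neighbouring cell, and an ADAM protease and then the gamma-secretase complex cut the receptor. The freed intracellular domain enters the nucleus, binds the DNA-binding protein RBPJ and switches on genes such as those of the HES and HEY families, which encode transcriptional repressors. In growing vessels Dll4 and Notch1 restrain sprouting, Notch4 is mainly endothelial, Notch3 and Heyl are typical of mural cells, and in liver Jag1 and Notch2 are known for their part in bile duct formation.

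The 8 libraries came from C57BL/6 mice at postnatal day 14, with 4 libraries of each genotype. The LRP1 eKO mice were LRP1 f/f; Cdh5-CreER+/-, which carry floxed Lrp1 alleles and an inducible Cre recombinase driven by the promoter of Cdh5, the gene of vascular endothelial cadherin. Their littermate controls (WT) were LRP1 f/f; Cdh5-CreER-/-, with the same floxed alleles and no Cre, so an effect of loss of LRP1 and one of the Cre transgene cannot be told apart. The labels name the samples "Liver microvesicular cells". The methods describe selection of microvascular ECs with PECAM-1 antibody on magnetic beads, which can carry over other cells. Whether a library was 1 mouse, a pool or a culture, and when Cre was induced, are not given in the sources used here, so p-values measure only the spread between these libraries, which may be technical.

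Signals of Lrp1 itself were 61.6, 59.0, 56.2 and 85.1 in the WT libraries and 6.01, 2.16, 5.15 and 4.32 in the LRP1 eKO libraries, both in order of replicate number as everywhere below, and the LRP1 eKO mean was 6.74% of the WT mean. WT means of the 12 pan-endothelial markers ranged from 0.308 (Tek) to 15.0 (Esam), with Cdh5 at 1.86 and Pecam1 at 2.09. The sinusoidal endothelial markers Stab1, Stab2 and Lyve1 were at 2.52 to 4.22, 0.459 to 0.538 and 1.63 to 2.02 in WT. Endothelial markers were thus detected, but some genes of other cell types gave far higher signals: Acta2 of smooth muscle 811, Dcn of fibroblasts 563 and Msln of mesothelium, chosen after its values were seen, 1020. Other markers of those cells ranged widely in WT. Of mural cells, means were 674 for Tagln, 16.1 for Pdgfrb, 0.534 for Myh11 and 0.055 for Rgs5. Of stellate cells and fibroblasts, they were 833 for Col1a2, 32.0 for Pdgfra and 0.112 for Lrat. Upk3b and Wt1 of mesothelium, also chosen after their values were seen, were at 396 and 103. Between the genotypes, summed marker signals did not overlap for pan-endothelial genes (47.9 to 49.6 in WT, 54.6 to 80.4 in LRP1 eKO), mural genes (1520 to 1570, 1860 to 1940), hepatocyte genes (1490 to 1540, 614 to 900), lymphatic genes (293 to 319, 237 to 254) or skeletal muscle genes (32.7 to 50.4, 10.9 to 11.9), and their part in the results on the Notch genes was not tested. The hepatocyte sum was mostly Trf (WT mean 1390, against 20.8 for Alb), the lymphatic sum mostly Pdpn (300, against 0.305 for Prox1) and the mural sum mostly Acta2 and Tagln. These sums therefore describe mainly those genes. In the pan-endothelial sum, Eng had the largest rise (12.4 ± 1.2 to 24.3 ± 3.86, SD, n = 4). Only Eng, Esam and Robo4 were above WT in every LRP1 eKO library, Cldn5 was below, and the other pan-endothelial markers overlapped. In bulk samples, fewer cells of a type and less RNA per cell cannot be told apart. WT replicate 4 was farthest from the WT median for 61.7% of genes and LRP1 eKO replicate 2 from its own for 37.2%.

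Each value is a quantile-normalized signal, in a unit the sources do not state. Among genes of low signal, the lowest values fell with the length of the gene's exons with a log2 slope of -1.01 over 1692 genes, so the signal behaves as one per length, and levels of different genes are compared on that scale. A gene entered the test when 4 or more of the 8 libraries reached a signal of 1, which held for 11391 genes, and log2(signal + 1) was compared between genotypes with limma. Fold changes on this scale understate the change of genes with low signals. Of the 10 genes, Notch1, Notch2, Notch3, Jag1 and Hes1 passed this filter, with a signal of at least 1 in 7 or 8 libraries each. Notch4, Jag2, Dll4, Hey1 and Heyl did not, and were fitted with all 22520 genes.

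Notch1 and Jag1 were higher in LRP1 eKO than in WT, and no gene of the 5 that passed the filter was lower. These 2 of 5 genes stand beside 19% of all tested genes called higher and 22.2% called lower by limma (adjusted p under 0.05), that is 2164 and 2526 genes and 41.2% in all. Neither Notch1 nor Jag1 changed by 2-fold, which 0.869% of tested genes did upward and 0.79% downward. Among the 5 genes below the filter, Notch4 was called higher, beside 8.07% of genes called higher and 10.6% called lower in the fit of all genes. Every LRP1 eKO library lay above every WT library for 4 of the 10 genes (Notch1, Notch2, Notch4 and Jag1) and below it for 1 (Heyl), beside 11.7% and 13.9% of all genes. Of the 5 that passed the filter, 3 lay above and 0 below in this way, beside 20% and 22.5% of the tested genes. When each library was instead centred on the mean log2 signal of the pan-endothelial markers, the median fold change of all tested genes moved from -0.01 to -0.26, the calls among all genes became 385 higher and 4182 lower, and none of the 5 Notch genes was called. Relative to that median, the fold changes of Notch1 and Jag1 were 0.45 and 0.31. Centring moves all genes by the same amount, so it cannot change these relative values, and they do not test the calls. Below the filter, Notch4 had a log2 difference of 0.05 after that centring, with a limma adjusted p of 0.77. Relative to the median it was 0.32, which centring likewise cannot change.

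**Figure D1:**
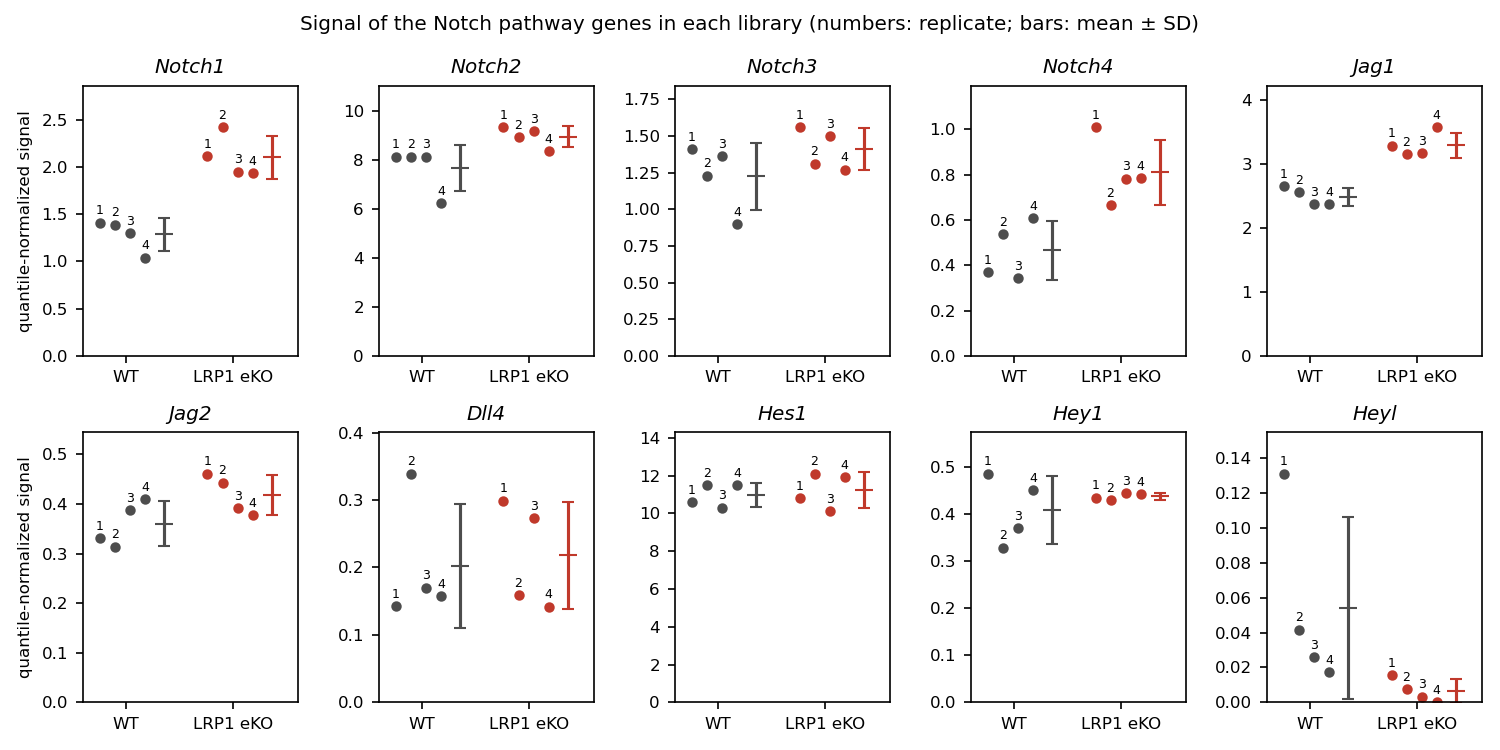
Signal (linear axis from 0, quantile-normalized, unit not stated) of the 10 genes in the 4 WT (grey) and 4 LRP1 eKO (red) libraries, numbered by replicate, with bars for the mean ± SD. The groups are apart for Notch1, Notch2, Notch4 and Jag1, where LRP1 eKO is higher, and for Heyl, where it is lower and where replicate 4 of LRP1 eKO is listed at 0.

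The receptors came first in the order of roles. Notch1, the receptor best known for restraint of sprouting (Ensembl ENSMUSG00000026923, GRCm38 chr2:26457903-26516663, minus strand), gave signals of 1.41, 1.39, 1.30 and 1.04 in WT against 2.11, 2.42, 1.95 and 1.93 in LRP1 eKO. All 4 LRP1 eKO libraries exceeded the highest WT library, and replicate 2 was the highest of all. The mean rose from 1.28 ± 0.169 to 2.11 ± 0.227 (SD, n = 4), that is by 64.0%, with a log2 fold change of 0.44 (95% interval 0.27 to 0.62) and an adjusted p of 0.0019 by limma. Leaving out any 1 library kept the change between 0.39 and 0.47, with limma adjusted p between 0.0027 and 0.0066. The exons of Notch1 share 1068 bases with 0610009E02Rik and 414 with Gm13568 on the other strand, and since the use of strand in counting is not stated, reads of these genes cannot be told apart from those of Notch1. The same holds for 541 bases that Notch2 shares with Gm42820 and 488 that Notch3 shares with Gm17276.

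Notch2, the receptor of bile duct development (chr3:98013527-98150361, plus strand), was the most abundant receptor. Its signals were 8.14, 8.13, 8.14 and 6.24 in WT and 9.34, 8.93, 9.17 and 8.36 in LRP1 eKO. The groups did not overlap, but 3 WT libraries were nearly equal and replicate 4 lay well below them. The means were 7.66 ± 0.951 and 8.95 ± 0.425 (SD, n = 4), and the log2 fold change of 0.21 (95% interval 0.02 to 0.39) missed the threshold with an adjusted p of 0.071 by limma. Centred on the pan-endothelial markers it was -0.05. Relative to the median of all tested genes it was 0.22, which centring cannot change.

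Notch3, the receptor typical of mural cells (chr17:32120820-32166852, minus strand), had signals of 1.41, 1.23, 1.36 and 0.899 in WT and of 1.56, 1.31, 1.5 and 1.27 in LRP1 eKO. The ranges overlapped, with WT replicate 4 again the lowest, and the log2 difference of 0.12 (95% interval -0.08 to 0.32) did not pass, with an adjusted p of 0.29 by limma. Mural markers stood beside it: 4 of the 6 tested of 10 were higher in LRP1 eKO and none was lower, beside 19% and 22.2% of all tested genes. Of these 4, Myh11 passed the filter only through the LRP1 eKO libraries (1.46 to 1.68, against 0.437 to 0.621 in WT). Below the filter 1, Rgs5, was called higher, beside 8.07% of genes in the fit of all genes. Centring on that list moved the median of all tested genes to -0.22 and Notch3 with it to -0.09. Notch3 was 0.13 above the median, which centring cannot change. Of the mural markers, Acta2 rose from 811 ± 37.3 to 1070 ± 32.1, Myh11 from 0.534 ± 0.0817 to 1.53 ± 0.102 and Tagln from 674 ± 12.3 to 764 ± 5.82 (SD, n = 4).

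Notch4, the mainly endothelial receptor (chr17:34564268-34588503, plus strand), was weakly represented. Its signals were 0.371, 0.538, 0.344 and 0.609 in WT and 1.01, 0.666, 0.783 and 0.786 in LRP1 eKO. All LRP1 eKO libraries were above the highest WT library, though replicate 2 of LRP1 eKO and replicate 4 of WT lay close to each other. The mean was 0.466 ± 0.129 in WT and 0.811 ± 0.144 in LRP1 eKO (SD, n = 4), with a log2 fold change of 0.31 (95% interval 0.11 to 0.50) and an adjusted p of 0.042 by limma without the filter. The call was lost without WT replicate 1, 2 or 3 or without LRP1 eKO replicate 1, 3 or 4, with log2 fold changes of 0.26 to 0.33 and limma adjusted p from 0.067 to 0.0997, and remained only without WT replicate 4 or LRP1 eKO replicate 2.

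The promoter windows of the 3 genes that were called are shown so that their sequence can be read beside the fold changes, with that of Hey2, a further Notch target, for comparison. Each run is the 250 bases before the start of the gene in RefSeq (GRCm38.p6), written 5′ to 3′ on the strand of the gene: Notch1 at chr2:26503823-26504072 (minus), Notch4 at chr17:34564045-34564294 (plus), Jag1 at chr2:137116521-137116770 (minus) and Hey2 at chr10:30842784-30843033 (minus). The RefSeq starts lie 12841, 27, 124 and 18 bases inside the genes as GENCODE annotates them, in the same order, so that the whole Notch1 window is within the GENCODE gene. Windows were found for 7 of the 10 genes, and not for Hes1, Hey1 and Heyl. Capitals mark CACGCG, a site that HES proteins bind, and its reverse complement CGCGTG in Jag1 and TTCCCAC, the reverse complement of the RBPJ core GTGGGAA, in Hey2.
Notch1: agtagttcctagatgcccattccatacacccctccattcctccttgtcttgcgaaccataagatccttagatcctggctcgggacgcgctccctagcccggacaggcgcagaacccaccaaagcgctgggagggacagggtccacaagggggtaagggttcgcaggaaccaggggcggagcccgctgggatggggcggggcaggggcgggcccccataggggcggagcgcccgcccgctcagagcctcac
Notch4: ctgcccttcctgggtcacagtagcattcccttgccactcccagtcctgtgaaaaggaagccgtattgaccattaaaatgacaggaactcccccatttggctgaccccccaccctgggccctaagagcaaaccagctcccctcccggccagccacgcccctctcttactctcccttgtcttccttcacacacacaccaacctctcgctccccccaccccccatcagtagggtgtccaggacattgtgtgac
Jag1: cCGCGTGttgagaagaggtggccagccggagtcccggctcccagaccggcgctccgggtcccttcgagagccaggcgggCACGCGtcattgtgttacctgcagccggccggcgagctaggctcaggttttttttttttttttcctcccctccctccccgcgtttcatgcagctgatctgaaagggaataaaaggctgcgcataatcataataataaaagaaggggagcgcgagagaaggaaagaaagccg
Hey2: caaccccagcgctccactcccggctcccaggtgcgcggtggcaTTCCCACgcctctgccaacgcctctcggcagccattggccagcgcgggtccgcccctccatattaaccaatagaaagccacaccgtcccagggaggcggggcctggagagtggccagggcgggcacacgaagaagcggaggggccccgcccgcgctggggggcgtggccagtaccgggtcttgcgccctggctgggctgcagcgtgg
Searched on both strands, GTGGGAA was in none of the 7 windows and in 5.42% of the 32851 windows of the same length, and in Hey2 it began 207 bases before the start. CACGTG, an E-box that HEY proteins bind, was likewise in 0 of 7 windows, beside 6.02% of all. CACGCG was in 3 of 7 (Notch2, Jag1 and Dll4), beside 7.62%. A match of letters is a description, and its absence says only that these letters are not in these windows.

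Among the ligands, Jag1 (chr2:137081456-137116644, minus strand) had signals of 2.66, 2.56, 2.37 and 2.38 in WT and of 3.29, 3.16, 3.17 and 3.58 in LRP1 eKO. The groups did not overlap, and each was tight. The mean of Jag1, the Jagged ligand of bile ducts and of vessels, rose from 2.49 ± 0.141 to 3.30 ± 0.197 (SD, n = 4), that is by 32.4%, with a log2 fold change of 0.30 (95% interval 0.16 to 0.43) and an adjusted p of 0.0038 by limma. Without any 1 library it lay between 0.27 and 0.32, with limma adjusted p between 0.0057 and 0.0138. Of the 9 cholangiocyte markers, 3 were tested. Of these, 0 were higher and 1, Krt7, was lower (141 ± 5.33 to 113 ± 3.83), beside 19% and 22.2% of all tested genes. Krt19 was 27.0 ± 1.22 and 30.3 ± 2.33 and Epcam was at most 0.0523 in any library. The third tested marker, Spp1, was 163 ± 28.2 and 378 ± 210.0, and of those below the filter Sox9 (0.633 ± 0.0673 to 0.926 ± 0.0796) and Cldn4 (0.142 ± 0.0675 to 0.326 ± 0.041) were called higher (SD, n = 4).

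Jag2, the second Jagged ligand (chr12:112907819-112929776, minus strand), had far lower signals of 0.331, 0.314, 0.387 and 0.410 in WT and of 0.461, 0.443, 0.391 and 0.378 in LRP1 eKO. The ranges overlapped, and the log2 difference of 0.06 (95% interval -0.01 to 0.13) had an adjusted p of 0.24 by limma. Dll4, the ligand of arterial and tip ECs (chr2:119325784-119335962, plus strand), had signals of 0.143, 0.339, 0.170 and 0.157 in WT and of 0.299, 0.159, 0.273 and 0.142 in LRP1 eKO. In each genotype the highest library was well above the lowest, and the spread within a genotype exceeded any difference between them. The log2 difference of Dll4 was 0.02 (95% interval -0.14 to 0.18) with an adjusted p of 1.0 by limma, and its exons share 214 bases with Gm14207 on the other strand.

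**Figure D2:**
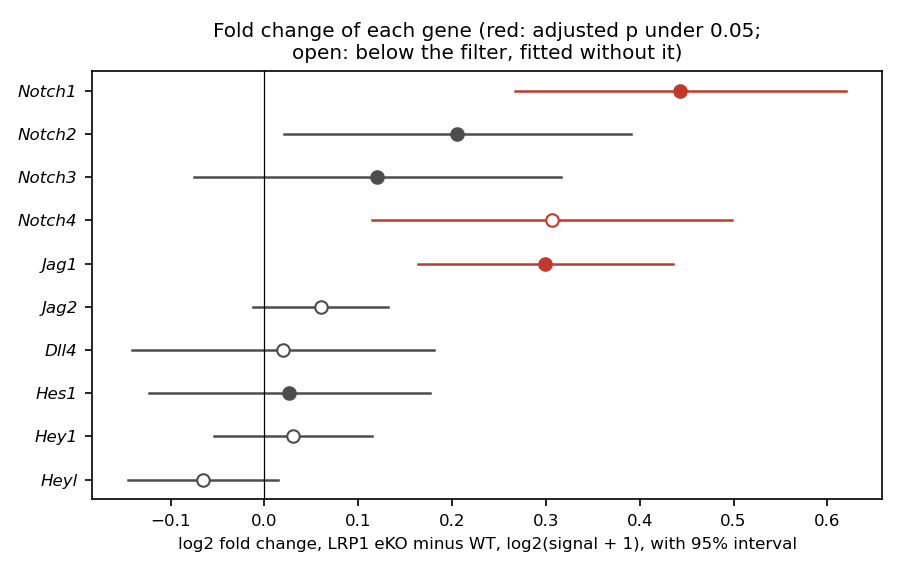
Log2 fold change, LRP1 eKO minus WT on the log2(signal + 1) scale, of each of the 10 genes with its 95% interval from limma. Red marks adjusted p under 0.05 and open points mark genes below the filter. Notch1 (0.44), Notch4 (0.31) and Jag1 (0.30) are red, and centring on the pan-endothelial markers, which moves all genes by the same amount, puts Notch2, Notch3, Jag2, Dll4, Hes1 and Hey1 below 0.

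The targets did not pass the test. Hes1, a repressor induced directly by Notch (chr16:30064384-30067796, plus strand), was the most abundant of the 10 genes, with signals of 10.6, 11.5, 10.3 and 11.5 in WT and of 10.8, 12.1, 10.1 and 11.9 in LRP1 eKO. The ranges overlapped throughout, with replicates 1 and 3 low and replicates 2 and 4 high in both genotypes. The means were 11.0 ± 0.587 and 11.2 ± 0.952 (SD, n = 4), and the log2 difference was 0.03 with a 95% interval of -0.12 to 0.18 and an adjusted p of 0.77 by limma.

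Hey1, the HEY repressor of arterial ECs (chr3:8663359-8667256, minus strand), had signals of 0.485, 0.328, 0.369 and 0.450 in WT and of 0.434, 0.429, 0.444 and 0.441 in LRP1 eKO. The LRP1 eKO libraries lay inside the WT range, and the log2 difference of 0.03 (95% interval -0.05 to 0.12) had an adjusted p of 0.68 by limma. Heyl, the HEY repressor typical of mural cells (chr4:123233556-123249875, plus strand), had signals of 0.131, 0.0417, 0.026 and 0.0173 in WT against 0.0155, 0.00742 and 0.00337 in LRP1 eKO, where replicate 4 was listed at 0. All LRP1 eKO libraries of Heyl were below all WT libraries, by little between the nearest pair and at signals near 0. Its log2 difference of -0.07 (95% interval -0.15 to 0.01) had an adjusted p of 0.26 by limma. Relative to the median of all tested genes it was -0.06, which centring on the mural markers cannot change. For the 5 genes whose groups did not overlap, the 2-sided exact permutation p was 0.029, the smallest that 4 against 4 libraries can give. Groups that do not overlap always give this value, so it adds nothing to the separation itself.

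By mean level in WT, Hes1 was followed by Notch2, Jag1, Notch1, Notch3, Notch4, Hey1, Jag2, Dll4 and Heyl, and the order of the means was the same in LRP1 eKO. Between neighbours in that order, the WT ranges overlapped for Notch1 and Notch3, and from Notch4 through Hey1 and Jag2 to Dll4. In LRP1 eKO only Hey1 and Jag2 overlapped, and Notch1 lay above Notch3 in every library pair.

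Expressed as shares of the summed signal of the 4 receptors, a measure chosen after the values were seen, Notch2 made up 71.9%, 72.1%, 73.1% and 71.0% in WT and 66.6%, 67.0%, 68.4% and 67.7% in LRP1 eKO. Notch1 made up 12.4%, 12.3%, 11.7% and 11.9% in WT and 15.1%, 18.2%, 14.6% and 15.7% in LRP1 eKO. Within the receptors, Notch1 therefore took a larger and Notch2 a smaller share in every LRP1 eKO library than in any WT library. The ranges overlapped for Notch3 (10.2% to 12.5% and 9.84% to 11.2%) and for Notch4 (3.08% to 6.93% and 4.99% to 7.21%). These shares do not change when a whole library is multiplied by a constant. Quantile normalization is not such a constant and can change them. The summed receptor signal was 8.79 to 11.3 in WT and 12.4 to 14.0 in LRP1 eKO.

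**Figure D3:**
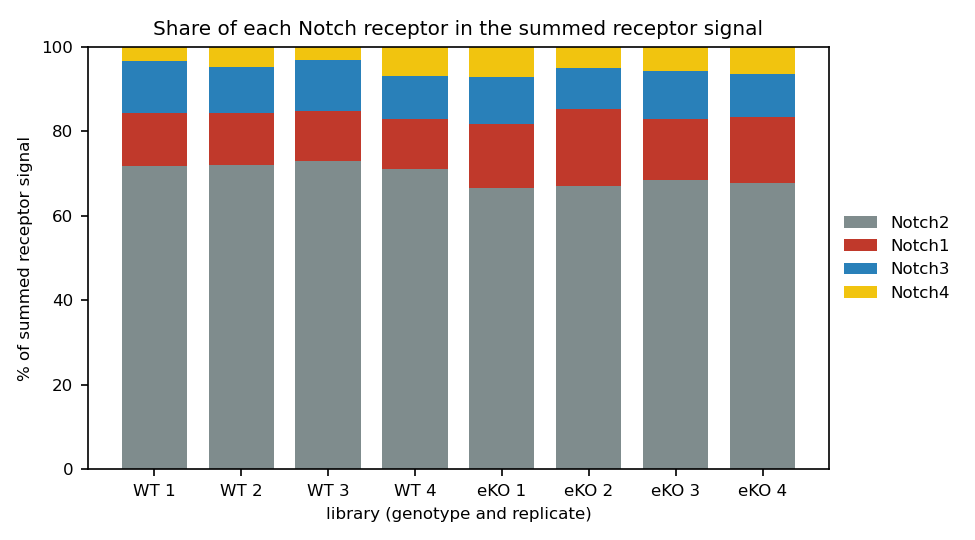
Share in % of each receptor in the summed signal of Notch1 to Notch4, stacked for each of the 8 libraries. Notch2 takes 71.0% to 73.1% in WT and 66.6% to 68.4% in LRP1 eKO, and Notch1 11.7% to 12.4% and 14.6% to 18.2%.

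The endothelial genes were then set beside the Notch genes in the same libraries. Cdh5 had signals of 1.90, 2.27, 2.03 and 1.26 in WT and of 4.99, 2.21, 4.65 and 2.94 in LRP1 eKO, and Pecam1 of 2.27, 2.50, 2.08 and 1.53 and of 3.85, 1.84, 3.61 and 2.79. Of the 7 pan-endothelial markers tested of 12, 3 were higher and 0 lower, beside 19% and 22.2% of all tested genes. Cdh5 was among the higher ones, with a log2 fold change of 0.68 and a limma adjusted p of 0.02. Of the 5 below the filter, Robo4 was called higher (0.525 ± 0.115 to 0.966 ± 0.141) and Cldn5 lower (1.08 ± 0.1 to 0.673 ± 0.122, SD, n = 4). Neither Pecam1 (0.36, limma adjusted p of 0.11) nor Tie1 (0.07, limma adjusted p of 0.68) passed. LRP1 eKO replicate 2 had the lowest Cdh5 and Pecam1 signals of its group and the highest Notch1 signal, while Notch4 was at its lowest of that group. Jag1 was nearly equal in replicates 2 and 3 of LRP1 eKO (3.16 and 3.17).

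Divided by Cdh5 in the same library, a measure also chosen after the values were seen, Notch1 was 0.613 to 0.826 in WT and 0.419 to 1.09 in LRP1 eKO, and Jag1 was 1.13 to 1.88 and 0.658 to 1.43. Per unit of Cdh5 the genotypes thus overlapped for both genes, and for Notch4 (0.169 to 0.484 and 0.168 to 0.301). Dll4 per unit of Cdh5 was 0.0754, 0.150, 0.0836 and 0.124 in WT and 0.0599, 0.0720, 0.0587 and 0.0481 in LRP1 eKO, lower in every LRP1 eKO library than in any WT library. Dll4 itself overlapped (means of 0.202 in WT and 0.218 in LRP1 eKO, below the filter), whereas the mean of Cdh5 was 1.86 and 3.70. The nearest libraries were close (0.0754 and 0.0720). How many of all genes separate when divided by Cdh5 was not counted. Summed macrophage markers were 113 to 222 in WT and of 52.8 to 734 in LRP1 eKO, the lowest in replicate 2, where Adgre1 was 0.713 and Vsig4 was 0.0381. Clec4f of Kupffer cells was listed at 0 in all WT libraries and was 0.124 to 0.826 in LRP1 eKO. Without WT replicate 4 and LRP1 eKO replicate 2 together, Notch1 and Jag1 had log2 fold changes of 0.34 and 0.30, with limma adjusted p of 0.0025 and 0.0062.

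**Figure D4:**
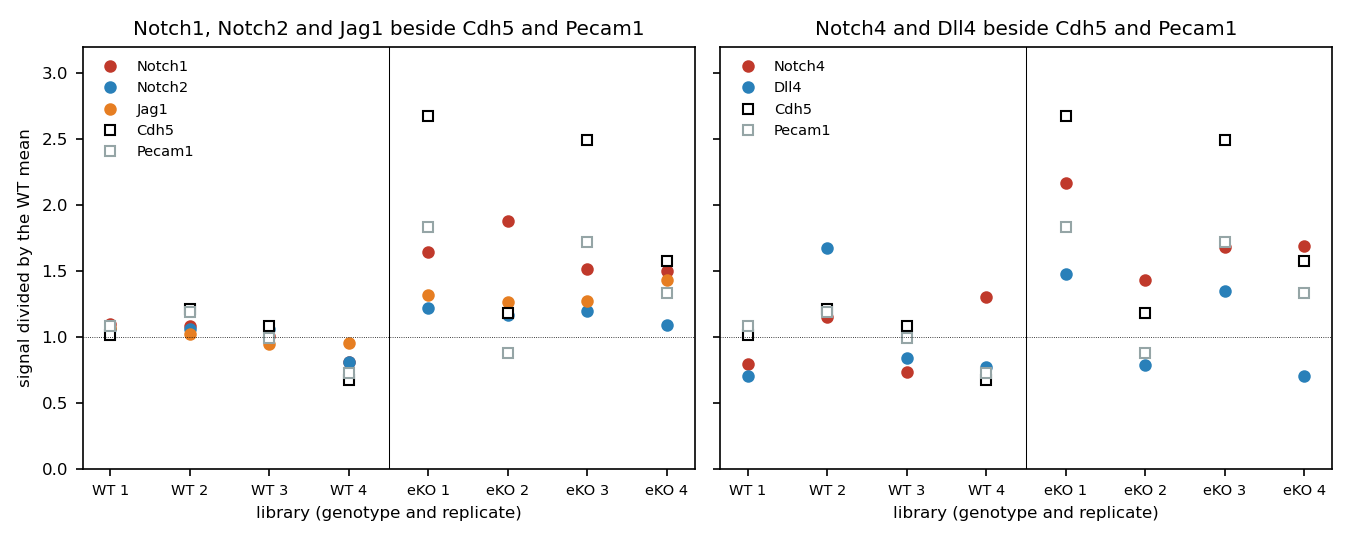
Signal of Notch genes (filled circles) and of Cdh5 and Pecam1 (open squares) in each library, divided by the WT mean of the gene (linear axis from 0, dotted line at 1). In LRP1 eKO replicate 2, Notch1 is at its highest, Notch4 is at the lowest of its group, and Pecam1 lies below the WT mean. Jag1 is nearly equal in replicates 2 and 3 of LRP1 eKO.

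Between libraries of the same genotype, the genes with the most similar deviations of log2(signal + 1) from the genotype means were listed over the 8 libraries. Notch1 was closest to 0610010F05Rik, Slc39a7 and Cd81 (Pearson's r of 0.982, 0.981 and 0.976), and Notch2 to Hipk1, Lrba and Nup188 (0.996, 0.993 and 0.992). Notch3 was closest to Cd248, a gene of pericytes and fibroblasts, Sntb2 and Fgd4 (0.982, 0.980 and 0.979). Jag1 was closest to Tm4sf1, Pnpt1 and Pddc1 (0.949, 0.916 and 0.914), and Hes1 to Pigh, 2010107G23Rik and Ung (0.965, 0.952 and 0.952). These values were the highest among 11391 genes over few libraries, which share 1 library (WT replicate 4) that stands apart, and describe these libraries only.

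The wider pathway was counted over 60 further genes, of which 44 passed the filter. By limma, 12 were higher (27.3%) and 7 lower (15.9%) in LRP1 eKO, beside 19% and 22.2% of all tested genes, and 0 passed 2-fold. The median log2 fold change of the 44 genes was 0.05, beside -0.01 over all tested genes. Among the 16 below the filter, 2 were called, both lower, beside 10.6% of genes called lower in the fit of all genes. They were the ligand Dll1 (0.371 ± 0.102 to 0.161 ± 0.0503) and the ligand ubiquitin ligase Neurl1b (0.783 ± 0.0735 to 0.444 ± 0.0414), both as SD with n = 4.

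Of the other ligands, only Dlk1, a membrane protein related to the Delta ligands and abundant in fetal liver, passed the filter. Its signals were 6.14, 5.40, 6.07 and 7.76 in WT and 3.74, 4.31, 4.20 and 3.83 in LRP1 eKO, and it fell by 0.54 (log2, limma adjusted p of 0.0016). Of the other HES and HEY genes, only Hes6, which antagonises Hes1, passed the filter, and it fell from 22.2 ± 2.59 to 17.7 ± 1.27 (SD, n = 4) with an adjusted p of 0.015 by limma. Hey2 (0 to 0.082 in WT and 0.0341 to 0.0863 in LRP1 eKO) and the feedback inhibitor Nrarp (0.199 to 0.378 and 0.046 to 0.285) were not called, and Hes3 and Hes5 were listed at 0 in all 8 libraries. No gene of this list was called higher.

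Genes that handle ligands and receptors included 13 that were tested, of which 5 rose and 1 fell, beside 19% and 22.2% of all tested genes. Neurl3, a ubiquitin ligase, rose from 0.964 ± 0.12 to 1.76 ± 0.448. Its range was 0.81 to 1.06 in WT and 1.29 to 2.31 in LRP1 eKO. Neurl3 would not have passed the filter on the WT libraries alone. Mib1, the ubiquitin ligase that ligand endocytosis needs, rose from 9.38 ± 1.65 to 12.0 ± 0.354. The endocytic adaptor Epn2 rose from 15.6 ± 1.44 to 18.8 ± 0.347 and Numbl, a relative of the Notch inhibitor Numb, from 21.3 ± 0.423 to 24.3 ± 1.23 (SD, n = 4 throughout). Of the 4 glycosylation genes tested, Pofut1, which adds O-fucose to Notch receptors, rose from 8.27 ± 0.732 to 10.4 ± 0.298 with an adjusted p of 0.005 by limma.

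The proteases that cut Notch receptors and their subunits were counted next. Of 10 protease genes tested, 2 rose and 3 fell, which is near the 19% and 22.2% of all tested genes called higher and lower. The called genes were gamma-secretase subunits. Psen2, a catalytic subunit, fell from 32.7 ± 2.41 to 24.9 ± 0.841 with a limma adjusted p of 0.00081, whereas the subunit Aph1b, named after its values were seen, rose from 3.43 ± 0.276 to 4.13 ± 0.406 (SD, n = 4) with a limma adjusted p of 0.047. The further subunits Aph1a (69.8 ± 3.81 to 60.4 ± 1.67) and Psenen (89.9 ± 8.63 to 77.4 ± 2.59) fell, and the receptor protease Adam10 was not called (41.0 and 46.8, limma adjusted p of 0.2).

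In the nuclear complex, 4 of 15 tested genes rose and 1 fell, beside 19% and 22.2% of all tested genes. Rbpj, the DNA-binding partner of the Notch intracellular domain, had signals of 18, 18, 17.5 and 13.7 in WT and of 20.3, 20.2, 21.8 and 21.2 in LRP1 eKO, with a log2 fold change of 0.30 and an adjusted p of 0.015 by limma. The corepressor Tle4 rose from 1.70 ± 0.0878 to 2.23 ± 0.0923, and the histone deacetylase Hdac1 fell from 53.3 ± 1.43 to 45.2 ± 0.837 (SD, n = 4). The coactivator Maml1 was at 8.36 and 8.40, with an adjusted p of 0.95 by limma.

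Genes of vessel identity, which Notch governs in arteries, were counted last. These counts stand beside 19% of all tested genes called higher and 22.2% called lower. Of 5 arterial genes tested, 0 were called, and Efnb2, the arterial ephrin, was 31.0 ± 4.47 and 30.8 ± 0.873 with a log2 difference of 0.00. The 6 arterial genes below the filter were not called either. Among them Sox17 and Gja5, at signals of at most 0.171, lay above WT in every LRP1 eKO library, beside 11.7% of all genes. Of 7 venous genes tested, Rspo3 (3.97 ± 0.271 to 5.86 ± 0.379) and Wnt2 (5.83 ± 0.546 to 7.52 ± 0.463), both secreted by central vein ECs, rose, and Ephb4, the venous Eph receptor, fell from 16.9 ± 0.314 to 13.3 ± 0.786 (SD, n = 4). Of the 3 venous genes below the filter, Ackr1 was called higher (means of 0.294 and 0.531), beside 8.07% of genes in the fit of all genes. Of 7 tip cell genes tested, 0 fell and 4 rose: Pdgfb (0.979 ± 0.174 to 1.41 ± 0.144), Flt4 (1.65 ± 0.0735 to 2.68 ± 0.484), Igfbp3 (153 ± 3.05 to 175 ± 10.1) and Cd34 (122 ± 10.6 to 150 ± 8.1). Pdgfb ranged from 0.732 to 1.11 in WT and from 1.21 to 1.53 in LRP1 eKO. It would not have passed the filter on the WT libraries alone. Cd34 and Igfbp3 are also expressed by fibroblasts, and the higher pan-endothelial and mural markers of the LRP1 eKO libraries stood beside these counts as they did beside those of the Notch genes.

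**Figure D5:**
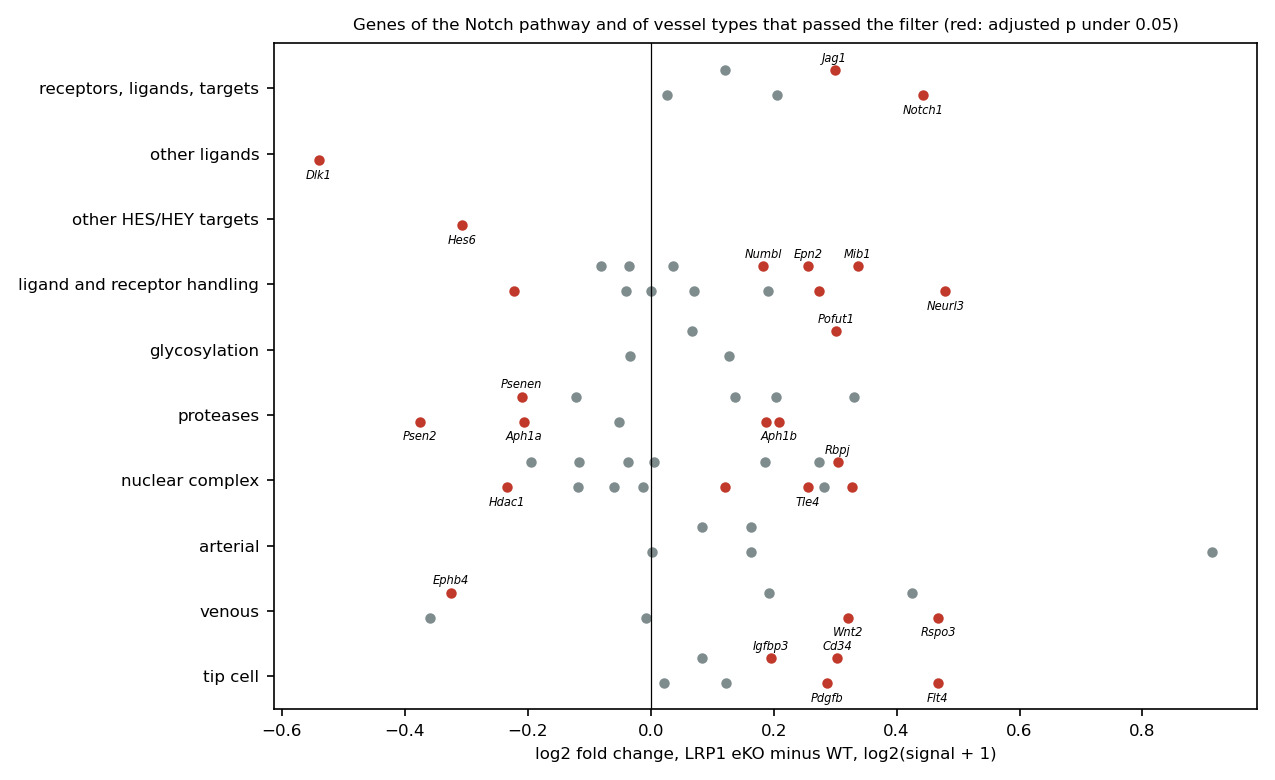
Log2 fold change (LRP1 eKO minus WT, log2(signal + 1) scale) of each gene that passed the filter, with 1 row for each list and vertical offsets for legibility only. Red marks limma adjusted p under 0.05, and names are given only for genes named in the text. Called genes lie on both sides of 0 among the proteases (2 higher, 3 lower) and the nuclear complex (4 higher, 1 lower), and none is called among the arterial genes. Over all tested genes, 19% were called higher and 22.2% lower.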

How the data were processed

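mRNA-seq libraries (RNeasy RNA, Illumina TruSeq kit per the labels) of 4 WT and 4 LRP1 eKO samples were grouped by the genotype and title in the labels. The authors deposited 1 table of 22520 coding genes with 8 columns of quantile-normalized signal, in a unit not stated. The submitters' processing notes name TopHat2, Cufflinks and mm10, while the study's methods name STAR, featureCounts and edgeR on mm10 with GENCODE genes, and neither says which made this table. The methods' test needs counts, which these values are not, so limma was used. Quantile normalization gives every library nearly the same distribution (column totals 484444.6 to 485947), so depth is unknown and a shift common to all genes cannot be seen. Between 6186 and 6621 genes were at 0 in a library.

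From these signals log2(signal + 1) was computed and fitted with limma 3.58.1 (trend, R 4.3.3, genotype as the only term) on all genes that reached a signal of 1 in 4 or more libraries, with Benjamini-Hochberg adjustment and a threshold of 0.05. Genes below the filter were fitted with all 22520 genes. Exact permutation tests, in Python 3.11.15 with scipy 1.17.1, compared the mean log2(signal + 1). The fit was tested on simulated data before use. Alternatives were other pseudocounts, filters, moderation, weights and centrings, the replicate number as a block, and leaving libraries out. Gene positions came from GENCODE M21, which held 21740 of the gene identifiers, and promoter windows from RefSeq (GRCm38.p6).

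The members and lists were chosen with earlier results of these data known. The text names all 10 Notch genes, Lrp1, up to 4 genes of each pathway list with the smallest adjusted p among those called, the first 3 markers of the cell type lists it uses, and the 3 genes closest to each tested Notch gene, except for 2 genes not reported here. Other genes were named for their low or missing signal or after their values were seen.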

Additional observations from a re-analysis of the deposited data

Results flagged for a closer look

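In 2 of the 20 groups of 4 libraries formed by the 10 Notch genes and both genotypes, 1 library lay far from the other 3. Chance alone gives such a gap in about 1 in 20 groups, that is 1.0 here.

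For Notch2 in WT, replicate 4 (6.24) was the lowest, and its gap to the next library was 0.993 of the whole range, since replicates 1 to 3 were 8.14, 8.13 and 8.14. The same library was the lowest WT library for Notch1, Notch3 and Cdh5. Without it the log2 difference of Notch2 was 0.12 with a limma adjusted p of 0.07.

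For Dll4 in WT, replicate 2 (0.339) was the highest, with a gap of 0.862 of the range to replicate 3 (0.170). All signals of Dll4 were under the filter.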

How the results depend on the processing

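The 2 Notch genes called higher and 0 called lower by limma stayed at those counts under each library left out (2 to 2, and 0 to 0), both other pseudocounts and both other moderations. The count of higher genes was 3 with no filter, with Notch4, and 3 with array weights, with Notch2 (0.14, limma adjusted p 0.040), where all genes gave 2644 higher and 3076 lower calls. It fell to 0 with a mean signal of at least 5, which left only Notch2 and Hes1 to test, with the 2-fold rule, and with centring on the pan-endothelial markers. That centring gave 385 higher and 4182 lower calls among all genes, against 2164 and 2526, and log2 differences of 0.19 for Notch1 and 0.04 for Jag1 (limma adjusted p 0.35 and 0.84), 0.05 for Notch4 (0.77), -0.050 for Notch2, -0.13 for Notch3, -0.20 for Jag2, -0.24 for Dll4, -0.23 for Hes1 and -0.22 for Hey1. These values moved with the common shift of all genes. Leaving out 1 library gave 1670 to 2200 higher and 2024 to 2538 lower calls.

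Centring on the mural markers gave -0.092 for Notch3 and -0.28 for Heyl (limma adjusted p 6.3e-05), with a shift common to all genes, and array weights gave -0.0086 for Hes1. Near 0, leaving out 1 library moved Dll4 between -0.011 and 0.073 and Hes1 between -0.0067 and 0.073, and turned the sign of Dll4 without WT replicate 1 (-0.0032) or LRP1 eKO replicate 1 (-0.011) or 3 (-0.0020), and of Hes1 without LRP1 eKO replicate 2 (-0.0067) or 4 (-0.0018). It moved Notch2 between 0.12 and 0.23, Notch3 between 0.047 (without WT replicate 4) and 0.16, Hey1 between 0.0034 (without WT replicate 2) and 0.057 (without WT replicate 1), and Heyl between -0.082 and -0.031 (without WT replicate 1), none of them called. The call of Notch4 was also lost with a pseudocount of 0.1 (limma adjusted p 0.053) and with robust moderation (0.052). The cause was not tested.

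Deviations of same-numbered libraries gave correlations of -0.086, -0.13, 0.18 and 0.038. With so few libraries these values cannot settle whether they were paired, and the labels give only a replicate number. With the replicate number as a block, 3 Notch genes were higher, Notch2 among them (limma adjusted p 0.046), 0 were lower, Notch4 was lost (0.15), and all genes gave 1975 higher and 2210 lower calls. No WT library correlated best with its own number. The depth behind each signal is unknown, so no counting error can be given for the low signals of Notch4, Jag2, Dll4, Hey1 and Heyl.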

Other observations

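Hepatocyte markers were lower in LRP1 eKO for 6 of the 6 tested, Alb from 20.8 ± 3.77 to 6.15 ± 0.505 (SD, n = 4). Of 7 stellate cell and fibroblast markers tested, 1 was higher and 3 were lower, and of 2 lymphatic markers tested both were lower. The higher one, Hgf, was at 0.689 to 1.09 in WT and 1.17 to 2.14 in LRP1 eKO. It would not have passed the filter on the WT libraries alone. Of 4 skeletal muscle markers tested, 4 were lower and 3 of these past 2-fold, among them Myl1 (13.7 ± 4.27 to 1.9 ± 0.19, SD, n = 4). Myog, also among the 4, passed the filter only through the WT libraries (2.07 to 3.23, against 0.426 to 0.505 in LRP1 eKO). Tnnt3 (4.86 to 9.1 in WT, 0.767 to 1.14 in LRP1 eKO) would not have passed on the LRP1 eKO libraries alone. Of all tested genes, 19% were called higher and 22.2% lower.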
